A study of Mus musculus with 14 samples.

Results

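Blood monocytes of mice 1 day after traumatic brain injury (TBI) were set against blood monocytes of normal mice. The comparison takes every array that its labels call blood monocytes, 3 titled post-TBI day 1 and 3 titled normal, which are 6 of the 14 arrays of the study, and covers all 21970 genes or unnamed probes that could be tested. The other 8 arrays hold Arg1+ and Arg1- brain macrophages, 4 each, sorted 1 day after TBI, and the study asked which macrophage subsets the injury brings about in the brain. All mice were males of the YARG strain, aged 12 to 16 weeks, in which a fluorescent protein reports arginase-1. The normal mice had no treatment. TBI was a controlled cortical impact through a craniectomy, and blood from mice with surgery alone is not among the arrays, so impact and surgery cannot be told apart in this comparison. Blood mononuclear cells were taken over ficoll and stained for CD45, CD11b, Ly6G and the macrophage antigen encoded by Adgre1 before sorting. The labels do not say whether replicates came from separate animals, so p-values measure only the spread between these samples, part of which may be technical.

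Monocytes are short-lived blood leukocytes that leave the bone marrow, circulate and enter injured tissue, where they become macrophages. Several body-wide signals act on them after an injury. Adrenal glucocorticoids bind the receptor encoded by Nr3c1, which moves to the nucleus and switches on genes such as Fkbp5. Interferons bind surface receptors that act through transcription factors such as Stat2 and Irf9, which bind a short element, the interferon-stimulated response element (ISRE), in front of interferon-stimulated genes. Products of bacteria and of dying cells act through Toll-like receptors and the transcription factor NF-kB, which binds the kB element in front of chemokine genes such as Cxcl2.

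The promoters below are printed because their genes carry the interferon and chemokine results below: Ifit3 and Ifit3b, both lower after TBI, Irgm1, a gene of the interferon gamma class just short of the threshold, and Cxcl2, higher after TBI. Each run is the 250 bases before the RefSeq start on build GRCm38.p6, 5′ to 3′ on the strand of the gene. Capitals mark matches to the ISRE core (GAAA, any 2 bases, GAAA), read on either strand with overlaps allowed, in the first 3, and to a kB motif (GGGA, any 1 base, TTTCC) in the last.
Ifit3 (chr19:34583279-34583528, + strand): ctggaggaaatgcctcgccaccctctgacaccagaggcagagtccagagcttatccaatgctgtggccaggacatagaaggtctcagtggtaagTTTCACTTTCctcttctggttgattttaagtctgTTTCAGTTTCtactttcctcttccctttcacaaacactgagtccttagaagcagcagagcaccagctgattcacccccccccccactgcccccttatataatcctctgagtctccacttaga
Ifit3b (chr19:34607707-34607956, + strand): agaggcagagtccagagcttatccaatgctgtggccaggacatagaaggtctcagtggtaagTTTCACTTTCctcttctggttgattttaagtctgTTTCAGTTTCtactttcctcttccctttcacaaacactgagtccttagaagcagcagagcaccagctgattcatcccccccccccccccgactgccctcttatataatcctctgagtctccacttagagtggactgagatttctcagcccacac
Irgm1 (chr11:48871421-48871670, - strand): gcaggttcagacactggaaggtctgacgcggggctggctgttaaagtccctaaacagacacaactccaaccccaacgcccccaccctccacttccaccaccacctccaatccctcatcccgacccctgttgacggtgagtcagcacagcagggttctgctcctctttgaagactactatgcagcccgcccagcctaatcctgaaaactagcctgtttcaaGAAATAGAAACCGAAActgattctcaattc
Cxcl2 (chr5:90903649-90903898, + strand): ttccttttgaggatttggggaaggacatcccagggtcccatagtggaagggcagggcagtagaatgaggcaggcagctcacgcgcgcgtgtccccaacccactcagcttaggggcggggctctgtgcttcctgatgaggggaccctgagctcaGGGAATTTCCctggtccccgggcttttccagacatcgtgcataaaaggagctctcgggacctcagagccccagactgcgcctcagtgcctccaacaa

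The Ifit3 and Ifit3b promoters lie close together on chromosome 19 and share an unbroken run of 169 bases that holds both of their matches. The pair is thus in effect 1 sequence, though the counts of genes below take it as 2. Over all mouse promoters in the RefSeq table, 978 of 32851 (2.98%) held the ISRE letters in the same 250 bases. Counted by gene, 936 of 27025 (3.46%) held them in at least 1 promoter. Of the 42 interferon-stimulated genes tested, 31 had a promoter in the table and 10 of those held the letters (10 of 37 promoters). Among the interferon gamma GTPases, 8 of the 9 tested genes had a promoter there and all 8 held them (8 of 9 promoters). The kB letters stood in 117 of 32851 promoters (0.356%), among them those of the neighbouring neutrophil attractants Cxcl1, Cxcl2 and Cxcl3. A glucocorticoid response element (AGNACA, any 3 bases, TGTNCT) stood in 20 of 32851 promoters (0.0609%) and in none of the 26 glucocorticoid-induced genes that had a promoter there. A match describes letters in this window only and is not evidence of binding.

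Levels are given as log2 of the processed signal over the array's own 75th percentile, so 0 is the level of that percentile; a ratio below 0.05 was set to 0.05, which is -4.32. Values of 1 gene are listed for normal replicates 2, 3 and 4 and then for post-TBI replicates 1, 3 and 4, the replicate numbers of the titles. The 75th percentile of the 6 arrays ran from 149.2 to 384.1 intensity units, and the share of probes well above background from 52.84% to 67.04%. Each of 3 slides held 1 array of each group: slide 1 held post-TBI replicate 3 with normal replicate 2, slide 2 both replicates 4, and slide 3 post-TBI replicate 1 with normal replicate 3. Post-TBI replicate 4 stood apart, with 3911 genes over 1 log2 unit from the mean of the other 2 post-TBI arrays, against 329 to 1847 for the other 5 arrays measured in the same way. Its correlation across genes with the other blood arrays was 0.937 to 0.960, against 0.967 to 0.987 among those arrays; as genes are no replicates, this is only a description.

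The cells carried the RNA of monocytes in both groups. Csf1r, the receptor for the growth factor that keeps monocytes alive, stood at 7.03 and 6.49 on normal replicates 2 and 3, its spot on replicate 4 being set aside, and at 6.48, 6.80 and 7.56 after TBI. Ly6c2, which marks the inflammatory subset, stood at 5.36, 5.59 and 4.85 and at 4.74, 4.72 and 5.12. These ranges overlap, as do those of the sorting markers Itgam (CD11b; difference 0.04 ± 0.21, SE), Adgre1 (0.26 ± 0.21) and Ptprc (CD45; -0.28 ± 0.19). Ccr2, the receptor with which monocytes leave the marrow, stood at 2.65, 2.60 and 2.90 and at 3.78, 3.45 and 2.44, above every normal array on 2 post-TBI arrays and below them on replicate 4. In bulk RNA such as this, fewer cells of a kind and less RNA per cell cannot be told apart. All 11 tested genes of a list of 12 monocyte markers were well above background on all 6 arrays, and none was called. The level of Arg1, the gene the reporter tags, was between -3.90 and -3.13 on all 6 arrays. No probe is named Ly6g here, so that antigen of the sorting stain could not be checked.

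Genes higher after TBI included the glucocorticoid-induced Fkbp5, the matrix proteoglycan gene Vcan, the chemokine gene Cxcl2 and the acute-phase gene Lrg1, and genes lower after TBI included the interferon-stimulated Ifit3 and its paralog Ifit3b. The differences were few. At a Benjamini-Hochberg adjusted p under 0.05 in limma, 33 of 21970 genes (0.150%) were called: 24 (0.109%), 17 of them with a symbol, were higher in post-TBI monocytes, and 9 (0.0410%), 7 with a symbol, were lower. In 2035 genes (9.26%) the 6 arrays did not overlap between the groups, 987 of them higher (4.49%) and 1048 lower (4.77%), and 1426 genes (6.49%) had an unadjusted p under 0.05. The 33 called genes were all among those that did not overlap. Without overlap, the post-TBI array of each slide must lie on the same side of its normal array, so the slides give no separate support. Lrg1 had no pair on slide 1, where its spot was set aside.

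**Figure D1:**
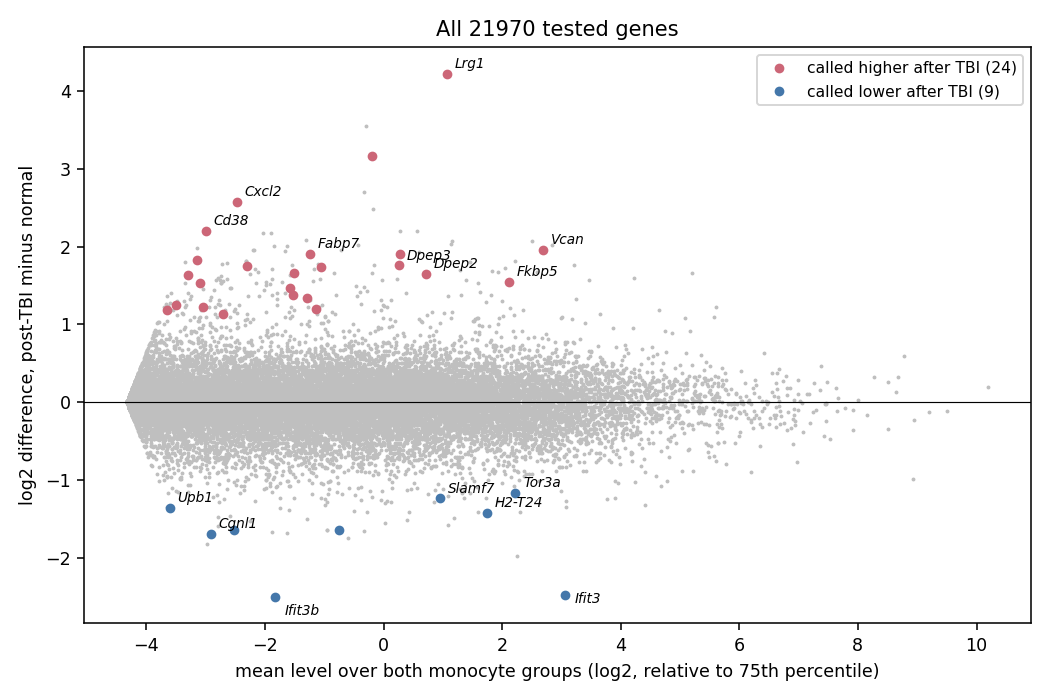
Each point is 1 tested gene, with its mean log2 level over both monocyte groups on the horizontal axis and its fitted log2 difference, post-TBI minus normal, on the vertical axis. The 24 genes called higher and the 9 called lower are coloured, and most other genes lie close to 0.

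The number of calls rested on single arrays and on the shared spread of all 14 arrays. Without post-TBI replicate 3 it was 2, without normal replicate 2 it was 10 and without post-TBI replicate 4 it was 16, while it was 60 without post-TBI replicate 1 and 54 without normal replicate 3. With only the 6 blood arrays in the limma fit it was 0, the smallest adjusted p being 0.593, with 893 genes at an unadjusted p under 0.05. That fit changes only the spread and leaves each difference as it was, so unchanged directions there give no support. With the replicate number of the titles as a block the number of calls was 2. With slide as a block on all 14 arrays it was 32, but Slamf7, Tor3a, Lrg1 and Saa3 lost their calls. Of the 24 called genes with a symbol, 5 were still called without normal replicate 2, 19 without normal replicate 3, 10 without normal replicate 4 and 1 without post-TBI replicate 3. Of the 23 with a value, 21 were still called without post-TBI replicate 1 and 8 without post-TBI replicate 4.

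Fkbp5 was the gene with the steadiest difference. It encodes a co-chaperone that holds the glucocorticoid receptor in a state of low affinity, and glucocorticoids induce it strongly in leukocytes. Its level was 1.31, 1.18 and 1.53 on the normal arrays and 2.97, 2.71 and 3.01 on the post-TBI arrays. Every post-TBI array thus lay over 1 log2 unit above every normal array, and the arrays within each group lay close together. The level rose 2.94-fold between the 3 normal and 3 post-TBI arrays, a log2 difference of 1.55 ± 0.17 (limma SE; limma adjusted p = 0.00251). Every SE given comes from the shared spread of all arrays of the study, brain macrophages included, and not from the blood arrays alone. It can be smaller than the blood arrays alone would give, as for Ifit3, or larger, as for Fkbp5. Further Fkbp5 probes gave 1.45 (adjusted p over all probes 0.0238) and 1.87 (0.0596). Fkbp5 kept its call when any 1 of the 6 arrays was left out (adjusted p 0.00356 to 0.016) and was the only gene with a symbol called without post-TBI replicate 3 or with the replicate block.

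Other glucocorticoid-induced genes did not pass. Gene lists were chosen with earlier results of these data known, so counts set beside all genes are a description and no test. Of a list of 35, 30 were tested and Fkbp5 was the only one called, against 0.109% of all genes called higher. In 7 the arrays did not overlap on the higher side and in 2 on the lower, against 4.49% and 4.77% of all genes. The median difference was 0.16 against 0 over all genes. Those on the lower side were Nr3c1 and Fkbp4, listed as receptor and chaperone. The 26 genes listed as targets had 5 without overlap on the higher side and 0 on the lower, with 20 positive and 6 negative differences. Those 5 were Mt1, Mt2, Il1r2, Fpr1 and Lcn2, and Lcn2 is counted again among the neutrophil markers below. Dusp1, Sgk1 and Zbtb16 were among the listed targets that could not be tested. The receptor gene Nr3c1 stood at 1.94, 1.90 and 1.93 on the normal arrays and at 1.56, 1.74 and 1.37 after TBI. Its post-TBI levels all lay below the normal ones, with a difference of -0.37 ± 0.17 (unadjusted p = 0.0453, adjusted p = 0.758). Fkbp4, a receptor co-chaperone related to Fkbp5, differed by -0.97 (adjusted p = 0.717). Of the commonly used target genes, Tsc22d3 (GILZ, an anti-inflammatory protein) differed by 0.05 ± 0.20 and the clock gene Per1 by 0.34 ± 0.22, with overlapping arrays. Klf9, also listed as a target, differed by 1.17 ± 0.38 with overlapping arrays (limma adjusted p = 0.475), and a second Klf9 probe gave 1.16 (adjusted p over all probes 0.164). The metallothionein genes Mt1 and Mt2, which bind zinc, stood 1.02 and 1.53 higher without overlap (adjusted p = 0.179 for each), and the decoy interleukin-1 receptor Il1r2 stood 1.96 higher (adjusted p = 0.179).

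**Figure D2:**
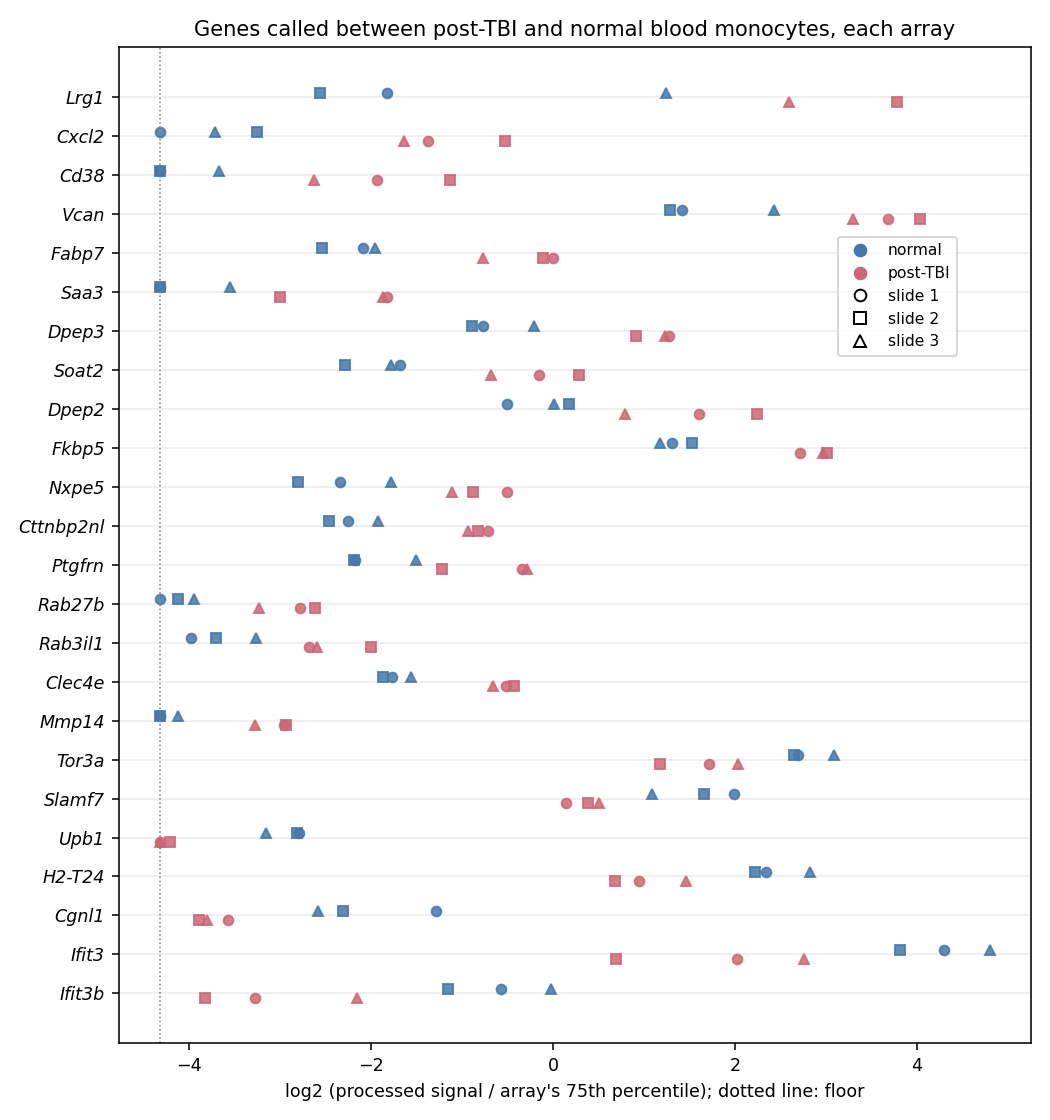
Each line of points is 1 of the 24 called genes with a symbol, ordered by its difference, with the log2 level on each array; blue points are normal, red points post-TBI, and the marker shape gives the slide. No gene has a blue point among its red ones, and several lower ends lie at the floor of -4.32.

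Genes of the matrix and of its enzymes were among those higher after TBI. Vcan encodes versican, a large proteoglycan of the extracellular matrix that inflammatory monocytes express. It stood at 1.42, 2.43 and 1.29 on the normal arrays and at 3.30, 3.68 and 4.04 after TBI. The lowest post-TBI array lay above the highest normal array, normal replicate 3, which itself stood above the other normal arrays. The level rose 3.89-fold (1.96 ± 0.29, limma adjusted p = 0.0134), and a further Vcan probe gave 2.26 (adjusted p over all probes 0.0324). Its call ended without normal replicate 2 (adjusted p = 0.0948), normal replicate 4 (0.0585), post-TBI replicate 3 (0.0817) or post-TBI replicate 4 (0.0611).

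Mmp14, a membrane-anchored protease that cuts collagen, was near the limit of detection, at -4.32, -4.12 and -4.32 and at -3.28, -2.96 and -2.94. It rose by 1.19 ± 0.19 (adjusted p = 0.0241; 0.37 with normexp correction, adjusted p = 1) but was well above background on only 1 normal array, and a second Mmp14 probe gave 0.40 (adjusted p over all probes 0.919). Its call ended without any 1 of 4 arrays, most of all post-TBI replicate 3 (adjusted p = 0.127). The neutrophil collagenase Mmp8 stood at 1.50, 2.19 and 1.61 and at 2.62, 3.04 and 3.19, without overlap, and just missed the threshold (1.19 ± 0.23, adjusted p = 0.0695). Of the 25 tested members of the list of matrix and adhesion genes, Vcan and Mmp14 were the 2 called, against 0.109% of all genes called higher. In 5 the arrays did not overlap on the higher side and in 1 on the lower, against 4.49% and 4.77% of all genes, and the median difference was 0.03. Thbs1, thrombospondin, which platelets also carry, stood 1.60 ± 0.50 higher with overlapping arrays (adjusted p = 0.438).

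Cxcl2 encodes a chemokine that draws neutrophils through the receptor Cxcr2. It stood at -4.32, -3.72 and -3.25 on the normal arrays, well above background on 1 of them, and at -1.64, -1.38 and -0.53 after TBI. All post-TBI arrays lay well above the normal ones, and the normal arrays were at or near the floor. The rise was 2.58 ± 0.40 (adjusted p = 0.0192), and its size depends on how dim signals are treated. It was 1.22 with normexp correction (adjusted p = 0.287), 1.48 on the authors' deposited log2 values (0.206) and 2.72 with a floor of 0.01. Cxcl2 was called in 3 of the 6 omissions of 1 array, and lost its call without normal replicate 2 (adjusted p = 0.119), post-TBI replicate 3 (0.0817) or post-TBI replicate 4 (0.0838). The related Cxcl1 and Cxcl3, whose promoters hold the same kB letters, were at the floor of -4.32 on every array except Cxcl1 on post-TBI replicate 4 (-3.93).

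Cxcl10, an interferon-induced chemokine that draws T cells, had the opposite sign, at -0.62, -0.84 and -1.67 against -2.41, -3.23 and -2.49, without overlap (-1.67 ± 0.42, adjusted p = 0.214). Ppbp, a platelet chemokine, was the other CXC ligand without overlap (1.80 ± 0.50, adjusted p = 0.313). The 9 tested CXC ligands had 1 call and a median of 0.09, the 11 tested CC ligands none and a median of 0. Il1b differed by 0.38 ± 0.33 and Tnf by -0.23 ± 0.39, both classical inflammatory cytokines, and in both the groups overlapped. None of the 14 tested NF-kB subunits and inhibitors was called or free of overlap.

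Pattern receptors gave 1 call. Clec4e (Mincle) is a C-type lectin that senses mycobacterial glycolipid and a protein of dead cells. It stood at -1.77, -1.56 and -1.87 and at -0.66, -0.52 and -0.43, the 3 arrays of each group lying close together. It rose by 1.20 ± 0.20 (adjusted p = 0.0268), and of the 6 omissions of 1 array kept its call in 2, without normal replicate 3 or post-TBI replicate 1, the value without post-TBI replicate 3 being 0.132. Clec4d, the lectin that pairs with Clec4e at the cell surface, stood at -0.65, -0.08 and -0.86 and at 0.96, 0.81 and 0.56, and was the first gene outside the threshold (1.31 ± 0.21, adjusted p = 0.0515). Cd14, the co-receptor that passes lipopolysaccharide to Toll-like receptor 4, stood at 0.76, 1.27 and 0.43 and at 1.69, 2.29 and 3.06 (1.53 ± 0.34, adjusted p = 0.127). Of the 14 tested scavenger, lectin and Fc receptor genes, 12 had a positive difference, 5 without overlap on the higher side (4.49% of all genes). Their median was 0.40, and 0.18 to 0.47 over the alternative settings. It was 0.29 without post-TBI replicate 4, and 0.04, 0.76 and 0.30 within slides 1, 2 and 3.

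Among the called genes Lrg1 had the largest difference and the widest spread. It encodes a leucine-rich glycoprotein of plasma that acts on TGF-beta signalling in blood vessels and is packed in neutrophil granules. It stood at -1.83, 1.24 and -2.56 on the normal arrays and at 2.59 and 3.78 on post-TBI replicates 1 and 4. The rise of 4.23 ± 0.76 (adjusted p = 0.0488) thus rests on 2 post-TBI arrays, and normal replicate 3 stood far above the other normal arrays. Without normal replicate 3 the difference was 5.38, the highest of the alternatives (adjusted p = 4.95e-05), and without normal replicate 2, normal replicate 4 or post-TBI replicate 3 the adjusted p was 0.213, 0.114 and 0.0917; without post-TBI replicate 1 or 4 only 1 post-TBI spot is left and Lrg1 was not tested. Lcn2, lipocalin-2, which binds bacterial iron carriers, showed the same high normal replicate 3, at -2.59, 0.17 and -3.82 against 0.49, 1.66 and 2.28 (3.56 ± 0.77, adjusted p = 0.123). Saa3, serum amyloid A3, rose by 1.83 ± 0.34 (adjusted p = 0.0488; 0.71 and not called with normexp correction) from -4.32, -3.55 and -4.32 to -1.87, -1.82 and -3.00, with 1 normal array well above background, and was called in 2 of the 6 omissions (adjusted p up to 0.249, without post-TBI replicate 3). Neutrophils carry Lrg1, Lcn2 and Mmp8, and the summed level of 15 neutrophil markers was 7.06 to 34.4 multiples of the 75th percentile on the normal arrays and 19.5, 27.0 and 102 on post-TBI replicates 1, 3 and 4; its part in these differences was not tested. Of the 15 genes, 7 had a positive and 8 a negative difference, from -1.23 for the granule protein gene Ltf to 3.56 for Lcn2, with a median of 0; S100a8, a calcium-binding protein gene of neutrophils and monocytes, stood at 1.43 with overlapping arrays.

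Dpep3 and Dpep2 encode membrane dipeptidases, of which Dpep2 cuts leukotriene D4. Dpep3 stood at -0.77, -0.21 and -0.89 and at 1.23, 1.28 and 0.91, and rose by 1.76 ± 0.23 (adjusted p = 0.00563). Dpep2 stood at -0.51, 0.01 and 0.18 and at 0.79, 1.61 and 2.24, and rose by 1.65 ± 0.29 (adjusted p = 0.0344). In both the groups were apart, by a wide gap for Dpep3 and a narrow one for Dpep2. When each of the 6 arrays was left out in turn, Dpep3 lost its call in 1 case, without post-TBI replicate 3 (adjusted p = 0.0556), and Dpep2 kept it in 1, without post-TBI replicate 1; Dpep2 had 0.189 without normal replicate 2. Soat2, which esterifies cholesterol, rose by 1.74 ± 0.25 (adjusted p = 0.00992; 0.0662 without post-TBI replicate 3) and Fabp7, a fatty acid carrier best known from glia, by 1.91 ± 0.28 (adjusted p = 0.0135). Fabp7 lost its call without normal replicate 2 (0.059), normal replicate 4 (0.0586), post-TBI replicate 3 (0.0917) or post-TBI replicate 4 (0.0611). The Soat2 and Fabp7 normal arrays lay between -2.29 and -1.68 and between -2.54 and -1.96, and the post-TBI arrays between -0.68 and 0.29 and between -0.77 and 0.00.

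Cd38 encodes an ectoenzyme that breaks down NAD. It stood at -4.32, -3.67 and -4.32 and at -2.63, -1.93 and -1.13, so the normal arrays were at or near the floor, with 1 well above background. The rise was 2.20 ± 0.31 (adjusted p = 0.00958; 0.81 with normexp correction, adjusted p = 0.36), and a second Cd38 probe gave 1.13 (adjusted p over all probes 0.131). The call ended without normal replicate 2 (adjusted p = 0.059) or post-TBI replicate 3 (0.0606). B cells also carry Cd38, and the summed level of 8 B cell markers was 4.80 to 5.77 on the normal arrays and 6.60 to 6.72 after TBI; its part in the difference was not tested.

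Cttnbp2nl, which binds cortactin, rose by 1.38 ± 0.18 (adjusted p = 0.00563). Of the 6 arrays left out in turn, post-TBI replicate 3 ended its call (0.0532). With normexp correction, the log2 difference of Cttnbp2nl was 0.81 (adjusted p = 0.244). Ptgfrn, a tetraspanin partner at the cell surface, rose by 1.34 ± 0.25 and Nxpe5, a gene of little known function, by 1.47 ± 0.25 (adjusted p = 0.0488 and 0.0284). A second Ptgfrn probe gave 0.64 (adjusted p over all probes 0.515). Rab27b, a GTPase of secretory granules, and Rab3il1, an exchange factor for Rab GTPases, rose by 1.25 ± 0.19 and 1.22 ± 0.22 (adjusted p = 0.0171 and 0.0488) from levels at or near background. Ptgfrn, Nxpe5, Rab27b and Rab3il1 were each called in 2 of the 6 omissions, with adjusted p up to 0.249, 0.173, 0.118 and 0.219. With normexp correction Nxpe5, Rab27b and Rab3il1 stood at differences of 0.84, 0.47 and 0.41, none called. The probe with the second smallest p, A_51_P374571, has no symbol here; it stood at -2.16, -0.79 and -2.38 and at 1.66, 1.42 and 1.10 (3.17 ± 0.35, adjusted p = 0.00251).

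Of 42 interferon-stimulated genes tested, 40 had a negative difference after TBI, the median over all genes being 0. Called were 3, all of them lower, against 0.0410% of all genes called lower. This list too was chosen with earlier results of these data known, so that comparison is a description only. Ifit3 encodes a tetratricopeptide protein that works with other Ifit proteins against viral RNA. It stood at 4.30, 4.80 and 3.82 on the normal arrays and at 2.76, 2.02 and 0.69 after TBI. The lowest normal array lay above the highest post-TBI array, and post-TBI replicate 4 was the lowest. Ifit3 fell by 2.48 on the log2 scale (SE 0.41, adjusted p = 0.0241; 5.58-fold lower), and its paralog Ifit3b fell by 2.51 (SE 0.43, adjusted p = 0.0344), from -0.57, -0.02 and -1.16 to -2.15, -3.28 and -3.83. Both probes may read RNA of both genes, so the 2 are not independent. Ifit3 lost its call without normal replicate 2 (adjusted p = 0.119), normal replicate 3 (0.072), post-TBI replicate 3 (0.0917) or post-TBI replicate 4 (0.05), and Ifit3b without the same arrays (0.144, 0.0951, 0.173 and 0.136).

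Tor3a encodes an interferon-induced ATPase of the endoplasmic reticulum. Its level was 2.69, 3.09 and 2.65 and then 2.03, 1.71 and 1.18, without overlap. It fell by 1.17 (SE 0.21, adjusted p = 0.0437) and was called without post-TBI replicate 1 but with no other array left out (adjusted p up to 0.168, without post-TBI replicate 3). Of the 48 genes in the list of interferon-stimulated genes, 42 were tested, and the 3 called were Ifit3, Ifit3b and Tor3a. Arrays of 21 genes did not overlap on the lower side, against 4.77% of all genes, and of none on the higher side. The median difference was -0.85 against 0 over all genes, and within slides 1, 2 and 3 the median was -1.03, -0.50 and -1.01. The median lay between -1.10 and -0.67 in 18 alternative settings.

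By role, all 11 RNA and DNA sensors had a negative difference (median -0.62), 5 without overlap, against 4.77% of all genes. Oasl1, which limits translation of Irf7, was the lowest at -1.27 (adjusted p = 0.2), and Zbp1, a sensor of Z-form nucleic acid, stood at -1.01 (0.311). The 5 transcription factors were all negative (median -0.90). Irf7, the factor that amplifies the type I interferon response, stood at 4.25, 4.67 and 4.28 and at 3.93, 2.95 and 2.56, without overlap (-1.25 ± 0.30, adjusted p = 0.179). Stat2 differed by -1.08 (adjusted p = 0.224). Among the 26 effectors 24 were negative (median -0.95), with Ifit2 at -1.66 ± 0.35 (adjusted p = 0.101), Cmpk2, a mitochondrial nucleotide kinase, at -1.29 ± 0.27 (0.11) and the ubiquitin-like Isg15 at -0.90 ± 0.25 (0.315). The 2 with a positive difference were Rsad2 (viperin) and Isg20, an exonuclease, both 0.96 with overlapping arrays.

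**Figure D3:**
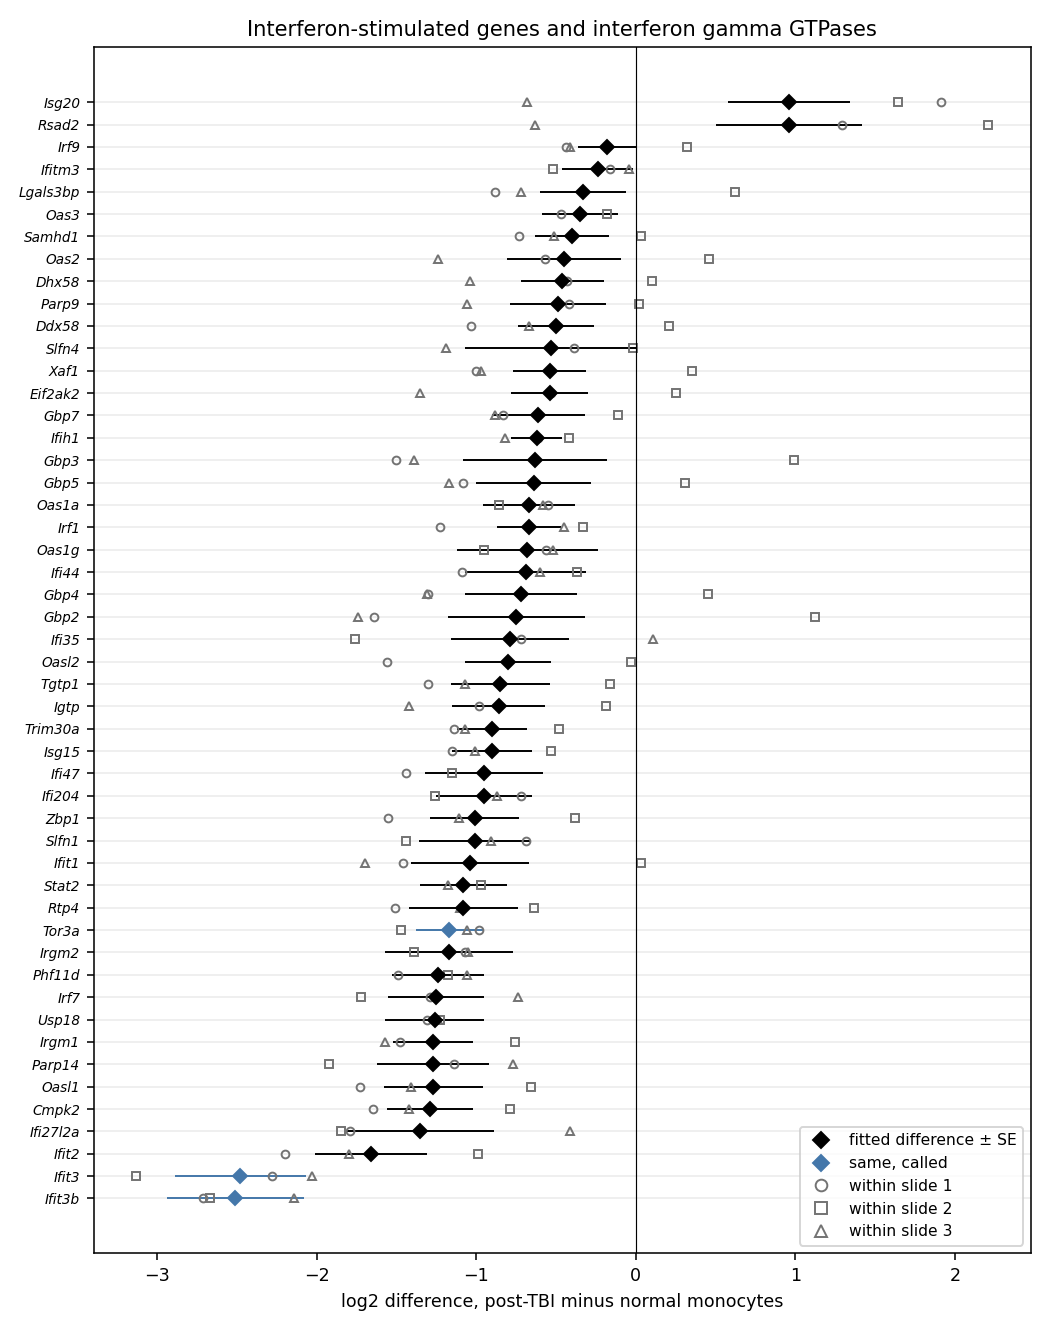
Each line is 1 gene of the interferon-stimulated and interferon gamma GTPase lists, with the fitted log2 difference, post-TBI minus normal, as a diamond with its SE and the difference within each slide as an open marker. The 3 called genes are in blue, and apart from Rsad2 and Isg20 every diamond lies left of 0.

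The interferon gamma GTPases, which attack vacuoles of intracellular microbes, had a negative fitted difference in all 9 tested genes. Their median was -0.75 (-1.29 to -0.43 over the alternative settings). In 2 the arrays did not overlap on the lower side, against 4.77% of all genes, and none was called. Irgm1 came closest, at 3.83, 4.15 and 3.16 and at 2.58, 2.35 and 2.40, without overlap (-1.27 ± 0.25, adjusted p = 0.0695). A second Irgm1 probe gave -0.75 (limma adjusted p over all probes 0.491). The within-slide medians of the 9 genes were -1.30, -0.11 and -1.31 on slides 1, 2 and 3. The smallest was that of the pair of replicates 4. Within that pair Gbp2, Gbp3, Gbp4 and Gbp5 had positive differences (1.12, 0.99, 0.45 and 0.31), and the other members negative ones. Split by promoter, the 18 genes of both lists with the ISRE letters had a median of -0.86 and the 21 without them -0.67, while the 12 with no promoter in the table had -0.98.

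Ligands, receptors, kinases and inhibitors of the interferon system gave no call among 15 tested genes, with a median of -0.03. The receptor chains Ifnar1, Ifnar2, Ifngr1 and Ifngr2 had differences of 0.48, 0.12, 0.47 and 0.12, none of them called. Ifnar1 rests on 2 arrays per group, and a second Ifnar2 probe gave -0.28. Ifnar2 and Ifngr1 did not overlap on the higher side (4.49% of all genes), and Usp18, Jak2 and Il15 on the lower (4.77%). Il15, a cytokine that interferon induces, differed without overlap (-0.78 ± 0.32, adjusted p = 0.681). Of the 11 tested genes of MHC class I processing, many of them interferon targets, 10 had a negative difference (median -0.46), 3 without overlap, against 4.77% of all genes, and none called. The median was -0.25 without post-TBI replicate 4. The immunoproteasome subunits Psmb9 and Psmb8 stood at -1.02 and -0.88 (adjusted p = 0.495 and 0.525) and the peptide transporter Tap1 at -0.66 (0.511). The non-classical class I gene H2-T24, which is outside that list, was called. It stood at 2.34, 2.82 and 2.22 and at 1.46, 0.94 and 0.68, without overlap. It fell by 1.43 (SE 0.26, adjusted p = 0.0441). When each of the 6 arrays was left out in turn it kept its call in 1 case, without post-TBI replicate 1, with values up to 0.189 without post-TBI replicate 3, and a second probe gave -0.57 (adjusted p over all probes 0.563).

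The other lower genes belong to no list above. Slamf7, a self-binding receptor of natural killer cells, plasma cells and myeloid cells, stood at 1.99, 1.09 and 1.66 and at 0.51, 0.14 and 0.38. It fell by 1.24 (SE 0.22, adjusted p = 0.0367; 0.189 without normal replicate 2 or post-TBI replicate 3, 0.124 without normal replicate 4 and 0.0927 without post-TBI replicate 4), and a second probe gave -0.85 (adjusted p over all probes 0.43). Natural killer cell markers summed to 1.12 to 5.49 on the normal and 1.10 to 3.36 on the post-TBI arrays. Klrk1, the NKG2D receptor, was at the floor after TBI (2.54-fold lower with the floor used here, limma adjusted p = 0.228). Its log2 difference ran from -1.94 to -0.38 over the alternative settings. The part of natural killer cells in the Slamf7 difference was not tested. Cgnl1, a junction protein, fell by 1.70 (SE 0.27, adjusted p = 0.0241; 0.059, 0.0817 and 0.0833 without normal replicate 2, post-TBI replicate 3 or post-TBI replicate 4; -0.58 and not called with normexp correction). Its 4 other probes gave -1.86, -0.90, -0.34 and -0.27, of which the first was called over all probes (adjusted p = 0.0208). Upb1, an enzyme of pyrimidine breakdown, fell by 1.36 (SE 0.17, adjusted p = 0.00563), from -2.79, -3.16 and -2.81 to the floor or just above it. Of the 6 arrays left out in turn, post-TBI replicate 3 ended its call (0.0532). The log2 difference of Upb1 was -0.43 with normexp correction (adjusted p = 1), -0.54 on the authors' deposited log2 values (0.135) and -1.54 with a floor of 0.01 (0.489).

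Genes that separate the monocyte subsets gave 1 call. Of 15 tested genes of the Ly6C-high subset, which enters inflamed tissue, 1 was called (Vcan; 0.109% of all genes were called higher), 3 did not overlap on the higher side (4.49% of all genes) and the median was 0.20. None of 18 genes of the patrolling Ly6C-low subset was called, and their median was 0. Nr4a1, the factor that subset depends on, stood at 3.74, 3.16 and 4.13 and at 3.44, 2.99 and 3.07, and Cx3cr1, its fractalkine receptor, at 3.84 and 4.08 (replicate 3 set aside) and at 3.59, 3.69 and 3.81. Chemokine receptors had a positive difference in 12 of 14 genes (median 0.41, none called). The lists of alternative activation, glycolysis, cell cycle, MHC class II presentation, immediate early, circadian clock and heat shock genes had no call and medians between -0.19 and 0.16.

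Markers of other blood cells also differed between the arrays. Platelet markers had a positive difference in 7 of 8 tested genes, 6 without overlap (4.49% of all genes), with a median of 1.47, or 0.95 without post-TBI replicate 4, and none called. Gp5 and Gp9, parts of the platelet receptor for von Willebrand factor, differed by 2.18 ± 0.63 (adjusted p = 0.345) and 1.78 ± 0.43 (0.196). The summed level of the 8 platelet genes was 5.59 to 9.70 on the normal arrays and 12.9, 14.4 and 26.4 on post-TBI replicates 1, 3 and 4, so the groups did not overlap; Pf4, a defining platelet gene, had no probe that passed the filter. The 5 tested red cell genes had a median of 1.66 but summed to 9.96, 92.5 and 38.6 and to 79.3, 94.8 and 138, with overlap. The eosinophil markers Ccr3, Siglecf and Alox15 were highest on both arrays of slide 2, the list summing to 29.4 on normal replicate 4 and 14.3 on post-TBI replicate 4 and to 9.37 to 11.6 on the other 4. The part of platelets and red cells in the called differences was not tested.

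**Figure D4:**
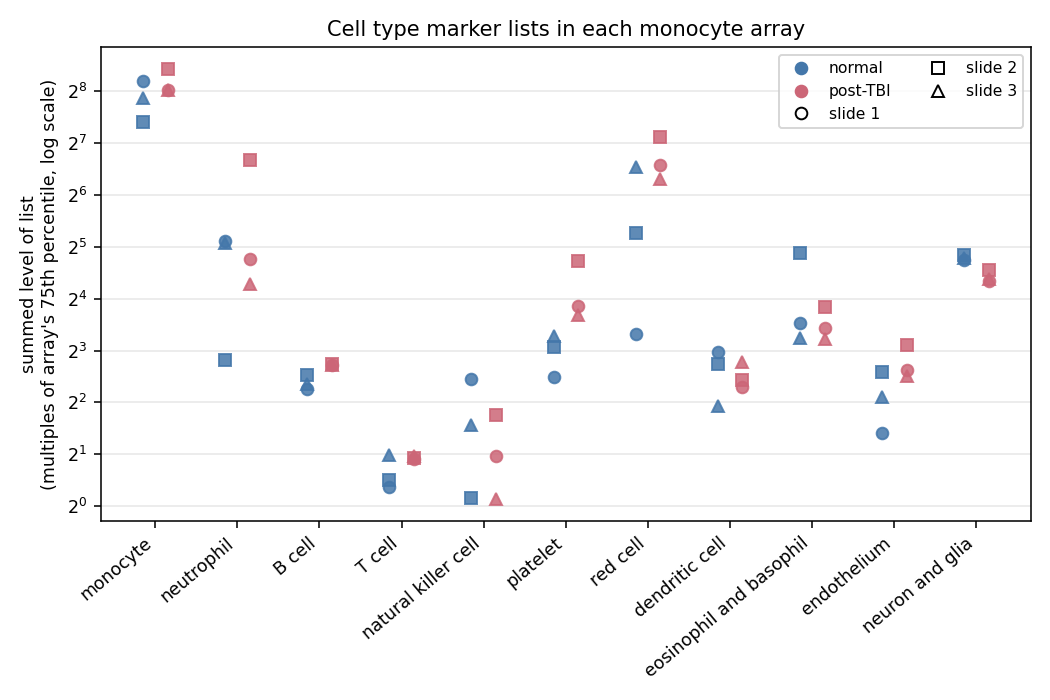
Each column is 1 list of cell type markers, with the summed level of its tested genes, in multiples of the array's 75th percentile on a log scale, on each of the 6 arrays; colour gives the group and marker shape the slide. Platelet sums do not overlap between the groups, and the eosinophil list is highest on the square of normal replicate 4.

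The study's brain macrophages, sorted at the same time after injury, show the called genes in cells of the injured tissue. Of the 17 named genes that were higher in post-TBI monocytes, 10 were higher still in Arg1+ macrophages than in post-TBI monocytes and 1 lower. In Arg1- macrophages 10 were higher and 2 lower. Over all genes 39.9% and 33.4% were called in these contrasts in either direction, so these shares do not match counts split by direction. The contrasts use the same post-TBI arrays. Mmp14 stood at a mean of -3.06 in post-TBI monocytes and at 3.08 and 2.75 in Arg1+ and Arg1- macrophages, and Cxcl2 at -1.18, 3.44 and 2.32. Fkbp5 stood at 2.90, 3.18 and 3.30 and Vcan at 3.67, 3.61 and 3.67 in the same order, and neither was called against post-TBI monocytes (limma adjusted p 0.0679 to 0.99). Rab27b was at the floor of -4.32 on the means of both macrophage groups. Of the 7 lower genes, 5 were higher in both macrophage groups than in post-TBI monocytes. As the genes were chosen on these post-TBI arrays, their low values there favour such a count, and nothing is read from it. Ifit3 stood at a mean of 4.31 in normal monocytes, 1.82 in post-TBI monocytes, 3.14 in Arg1+ and 3.94 in Arg1- macrophages, and Tor3a at 2.81, 1.64, 2.47 and 2.65.

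**Figure D5:**
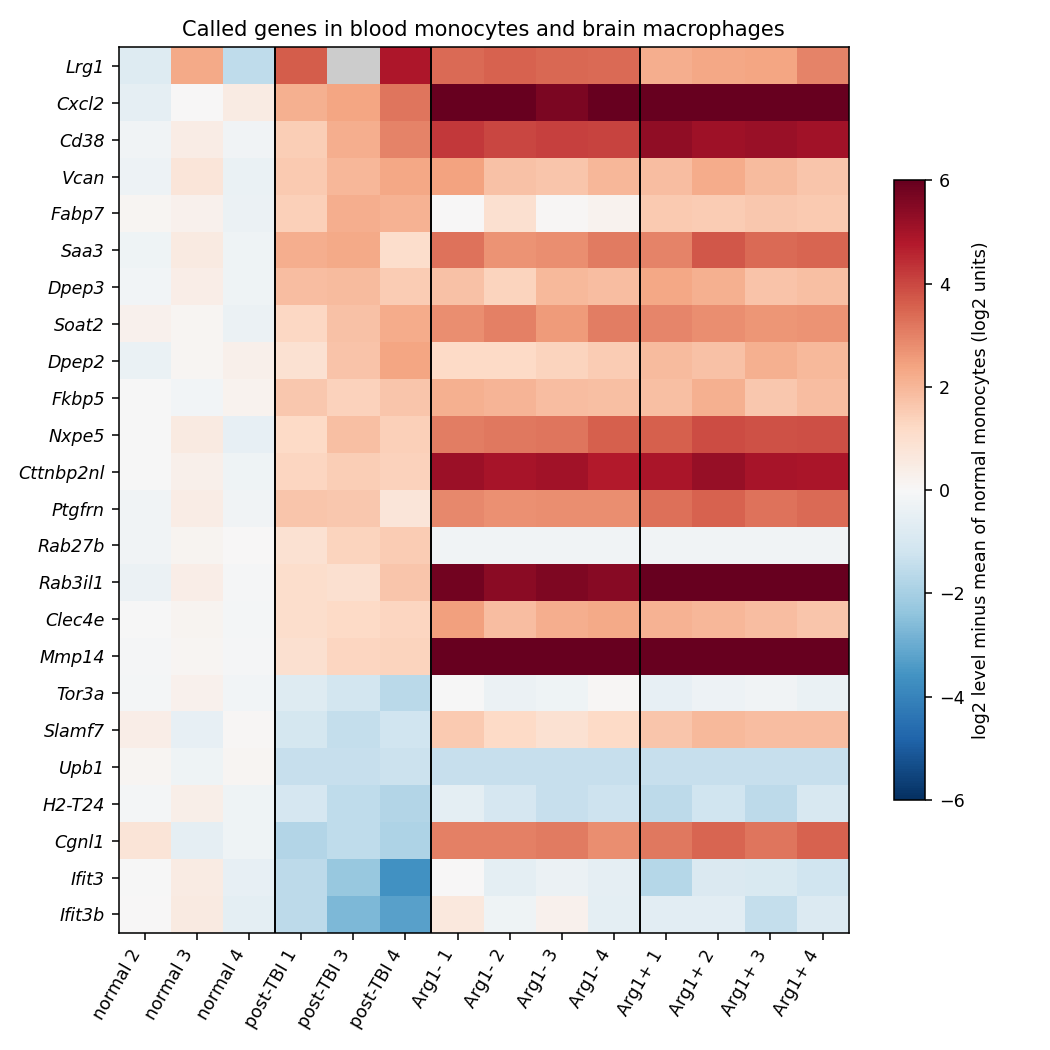
Each row is 1 called gene and each column 1 of the 14 arrays, coloured by the log2 level minus the mean of the normal monocytes on the scale of the colour bar, beyond whose ends colours do not change; grey is a spot set aside. Mmp14, Cxcl2 and Rab3il1 are darkest in the macrophage columns, while the Ifit3b cells of the macrophages are paler than those of the post-TBI monocytes.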

How the data were processed

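RNA of 14 sorted cell samples was amplified, labelled with Cy3 and hybridised to 1-colour Agilent mouse arrays, per the labels' protocols. Per the file headers, the deposited array files hold the processed signal intensity of Feature Extraction 10.7.3.1 (background-subtracted, not scaled between arrays, below 0 for dim spots), with flags and other values per spot. A deposited table holds the authors' log2 values, with nearly equal distributions on all arrays; the submitters' processing notes name limma, and their steps are not given in the sources used here.

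Of 41174 non-control probes, after outlier spots were set aside, 464 were dropped for under 2 usable arrays in some group and 13102 as dim (under 3 arrays well above background), which left 27608. Symbols came from RefSeq (GRCm38.p6) through the probes' accessions for 24844 probes. Signals were divided by the array's 75th percentile, floored at a ratio of 0.05 and put on the log2 scale, and the brightest probe was kept per symbol. limma 3.58.1 (R 4.3.3; lmFit, eBayes with a trend, two-sided) was fitted to 14 arrays in 4 groups, which share 1 estimate of spread with 10 residual degrees of freedom, with Benjamini-Hochberg adjustment over all 21970 genes and a threshold of 0.05. A list is described by counts and a median, with no test. The number of arrays limits the precision. On simulated data (21970 genes, 200 changed), 84% of log2 changes of 2 and 33% of changes of 1 were called, with 5.6% false calls. The simulation gave each gene 1 spread on all 14 arrays, without array or slide effects or an array apart like post-TBI replicate 4. Its rates therefore need not hold for the real arrays.

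The genes named are every called gene with a symbol, Fkbp5, Vcan, Cxcl2 and Ifit3, up to 6 members per list (3 per cell type list) with the largest difference, and a fixed set of receptors, markers and targets; other list members that are named were chosen after their values were seen. Some genes that this rule selects are not reported here. The members and lists were chosen with earlier results of these data known. Only replicate numbers 3 and 4 occur in both monocyte groups, with correlations of deviations of 0.21 and 0.35, so the numbers do not establish pairs; arrays that share a slide gave 0.13, 0.27 and 0.35. Alternatives covered background correction, scaling, floor, filters, probes, blocks, array weights and each array left out.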

Additional observations from a re-analysis of the deposited data

Results flagged for a closer look

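In groups of 4 arrays, which here are only those of the brain macrophages, 1 array stood far from the other 3 in 2 of the 44 groups of values examined for the called genes. Chance alone gives about 1 in 20. Fabp7 on Arg1- replicate 2 was at a log2 level of -1.23, against -2.16 to -2.01 on the other 3 Arg1- arrays. Cxcl2 on Arg1+ replicate 1 was at 4.52, against 2.99 to 3.18 on the other 3 Arg1+ arrays. The monocyte groups have 3 arrays each and were not examined in this way.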

How the results depend on the processing

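The 33 calls (24 higher, 9 lower) fell to 16 (11 and 5) with normexp correction, made on the median spot signal because the mean was not used here, and to 20 (12 higher) on the authors' deposited log2 values. With only the 6 blood arrays limma called 0 (893 at an unadjusted p under 0.05), and with those and slide as a block 0 (1038); fewer residual degrees of freedom remain there. With slide as a block on all 14 arrays it called 32 (26 higher, 6 lower), but no longer Slamf7, Tor3a, Lrg1 or Saa3. With the replicate number as a block it called 2 (2 higher, 0 lower, 1355 at an unadjusted p under 0.05). With array weights it called 297 (166 and 131), post-TBI replicate 3 weighing 4.74 and replicate 4 0.23. Leaving out 1 array in turn gave 2 to 60 calls, 2 to 49 higher and 0 to 22 lower; the 0 was without post-TBI replicate 3, with 1632 genes at an unadjusted p under 0.05. Without normal replicate 4 the split turned to 11 higher and 12 lower. The other alternatives stayed within 1.5 times the count. All 24 named called genes kept their direction in every setting that gave them a value. As their arrays do not overlap, leaving out arrays, weighting them or using only the blood arrays could not reverse a direction. The kept directions are thus no separate support in those settings. The causes of the changes in the counts were not tested beyond what is said here. Genes at or near the floor, such as Cxcl2, Mmp14, Cd38, Rab27b and Saa3 on the normal arrays and Upb1 after TBI, have differences that depend on the floor, and 3 arrays a side limit what can be called.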
